A study of Sus scrofa with 18 samples.

Results

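H3K27ac in the uterine circular muscle of pregnant gilts (GD15M_CM) was compared with that in the circular muscle of cyclic gilts (CD15M_CM). Both groups were Yorkshire gilts sampled on day 15, either of pregnancy after natural mating or of the oestrous cycle, and no other treatment or allele is given for them. Muscle came from the mesometrial side of the uterus, where the endometrium had been cut away and the circular layer parted from the longitudinal layer by hand. The comparison rests on 4 of the 18 libraries of the study, 2 gilts per group, made by CUT&Tag, in which a protein A-Tn5 fusion cuts the DNA at sites bound by the antibody. The authors pooled both gilts of a group before they called peaks against an IgG control, which gave 79877 peaks in GD15M_CM and 82037 in CD15M_CM, 2 of the 6 peak lists of the study. The lists used here hold no value per gilt, so no difference below was set against the spread between animals, no test was made, and all differences describe these pooled lists. The peak lists do not hold the depth of the libraries, and the 95% Wilson intervals of shares cover counting error only.

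Each peak has a fold enrichment, the ratio of its H3K27ac signal to IgG. Folds of different lists are not on a common scale, so each was turned into its percentile among the peaks of its own list. The best percentile of a gene is that of its highest-ranking peak from 3 kb before to 3 kb after the gene, or 0 where there is no peak. Its acetylated length is the number of bases in this window covered by peaks. Of the 28210 RefSeq genes placed on the named chromosomes of Sscrofa11.1, 18998 had a peak in at least 1 of both lists and were compared. A gene was counted as higher in a group when its best percentile was at least 10 points higher there, and as longer when its acetylated length was at least 1000 bp and at least 1.5-fold longer. RefSeq positions carried no strand here, and both ends of a gene were treated alike.

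H3K27ac is laid down by the acetyltransferases p300 and CBP and marks active promoters and enhancers. Myometrial cells contract when calcium enters through L-type channels or leaves internal stores and the light chain of myosin is phosphorylated, while potassium channels and progesterone keep the muscle quiet in early pregnancy. When pig conceptuses attach to the uterus they secrete type I interferon and interferon-gamma. These cytokines act through JAK kinases and STAT factors on genes of antigen presentation, and immune cells gather at the attachment sites.

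The labelled tissue was checked first against smooth muscle markers. All 10 had peaks in both lists, with best percentiles from 68.6 to 97.8 in GD15M_CM and from 87.8 to 98.7 in CD15M_CM. ACTA2 ranked at 97.4 and 98.7 and MYH11 at 96.6 and 94.3. Markers of other cells that a hand-cut muscle layer may hold also had peaks. The 10 uterine epithelium markers together carried 47.7 kb of acetylated length in GD15M_CM, 21.5 kb in CD15M_CM and 5.01 kb in the longitudinal muscle of the pregnant gilts (GD15M_LM). By rank, 6 of these 10 were higher in GD15M_CM and 1 in CD15M_CM, against 25.5% and 27.4% of all genes. Their median percentiles were 76.2 and 67.0. Cadherin 1 (CDH1), which joins epithelial cells, ranked at 76.2 and 4.75, and the epithelial factor GRHL2 at 94.6 and 69.8. Of 9 placed T cell markers, 4, among them CD3E, CD3D and LAT, had no peak in either list, and the other 5 carried 8.41 kb in GD15M_CM and 1.95 kb in CD15M_CM. Smooth muscle markers carried 127 kb and 181 kb, and fibroblast markers 25.5 kb and 35.9 kb. In such pooled tissue a different number of cells of a type and a different acetylation per cell cannot be told apart.

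Peaks near gene ends were mostly held in common, and those elsewhere less so. Of the GD15M_CM peaks on named chromosomes, 28728 lay no more than 3 kb from the end of a gene, and 78.1% of these (77.6 to 78.6) overlapped a CD15M_CM peak, against 62.5% (62.1 to 63.0) of the 50147 farther peaks. Counted from CD15M_CM, 77.0% (76.5 to 77.4) of 28349 near peaks and 55.2% (54.8 to 55.6) of 52654 far peaks were shared. The far peaks therefore hold most of what was found in 1 list only, 18783 peaks covering 7.49 Mb in GD15M_CM and 23590 covering 10.2 Mb in CD15M_CM. Peaks of 1 list only were weaker and shorter: near gene ends their median fold enrichment was 3.21 in GD15M_CM and 3.15 in CD15M_CM, against 4.02 and 4.08 for shared peaks. In the top decile of fold enrichment, 91.3% of far GD15M_CM peaks and 91.9% of far CD15M_CM peaks were shared.

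**Figure D1:**
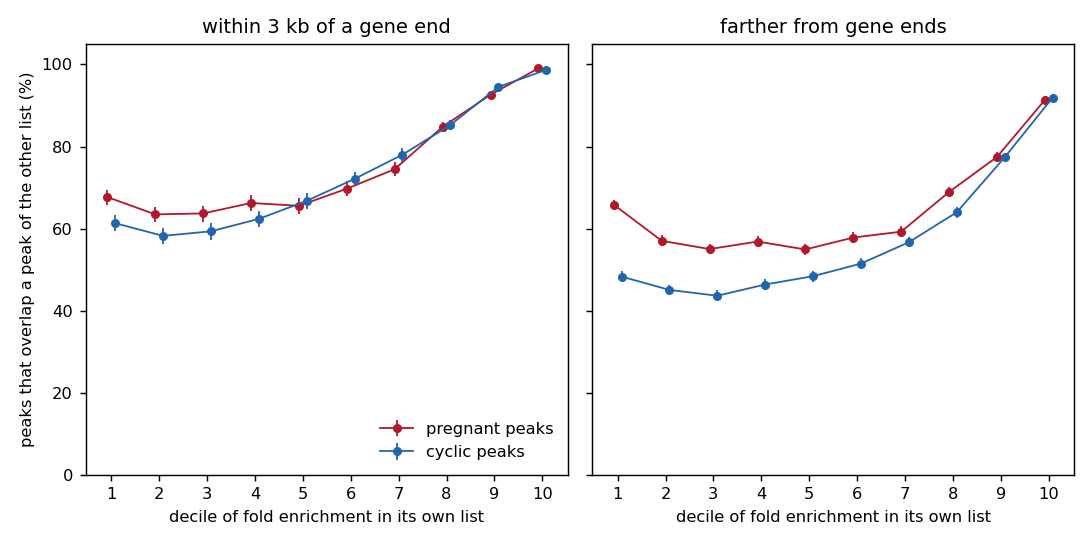
Share of H3K27ac peaks that overlap a peak of the other list (%, y axis) by decile of fold enrichment within the peak's own list (x axis), for peaks within 3 kb of a gene end (left) and farther away (right). Bars are 95% Wilson intervals. In the top decile 99.1% of near pregnant and 98.7% of near cyclic peaks are shared, and in the third decile of far peaks 55.0% and 43.6%.

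Where a peak was shared, its rank often moved. Each shared GD15M_CM peak was set against the highest-ranking CD15M_CM peak that overlaps it, and not the reverse. Spearman's rho between their percentiles was 0.45 over the 22445 shared GD15M_CM peaks near gene ends and 0.28 over the 31364 far ones. These points share the IgG libraries of their group and the sequence under the peak, and most fold values are tied, since 97.1% of GD15M_CM and 97.2% of CD15M_CM peaks have the same fold as another peak of their list. The largest group of equal folds held 892 of 79877 peaks in GD15M_CM and 663 of 82037 in CD15M_CM. Ties alone thus blur a percentile by less than the 10 points of the criterion, but the uncertainty of a fold itself was not measured. The rank of a gene with 1 peak rests on that peak alone.

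Over all genes, neither group ranked higher as a whole. Best percentiles were higher in GD15M_CM for 49.2% of the 18998 genes (48.5 to 49.9), with a median difference of -0.15 points (pregnant minus cyclic). By the criterion of 10 points, 25.5% of genes were higher in GD15M_CM and 27.4% in CD15M_CM. Acetylated length was longer in GD15M_CM for 44.8% of genes (44.1 to 45.5), and by the length criterion 7.57% were longer in GD15M_CM and 12.1% in CD15M_CM. CD15M_CM also had the longer list, 75.3 Mb against 68.2 Mb. With cyclic lengths multiplied by 0.905 so that both lists covered the same total, 10.3% were longer in GD15M_CM and 8.84% in CD15M_CM, so the direction of the length difference over all genes turned with the scaling. All counts for gene groups below are to be read beside these shares.

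**Figure D2:**
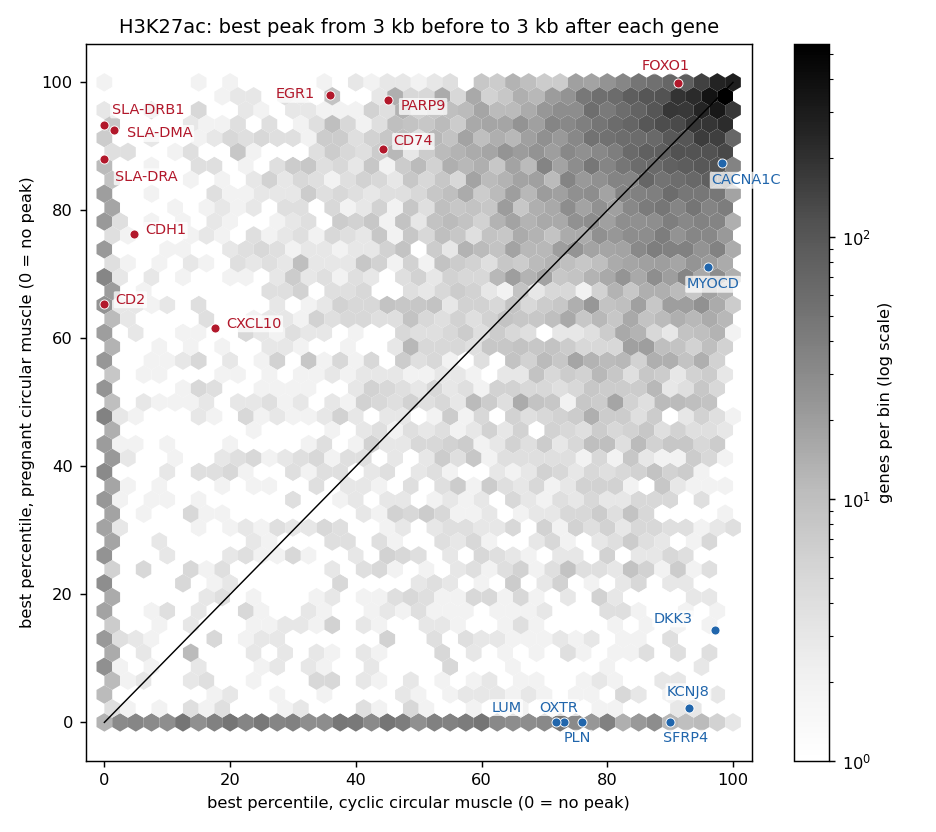
Best H3K27ac percentile of each of 18998 genes in cyclic (x axis) and pregnant (y axis) circular muscle, as shaded bins of genes on a log scale, with the line of equal rank. Labelled points are members of the gene lists, in red where higher in pregnant and in blue where higher in cyclic muscle. SLA-DRA, SLA-DRB1 and CD2 lie on the left edge, with no cyclic peak, and OXTR, PLN, LUM and SFRP4 on the lower edge, with no pregnant peak.

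The genes of MHC class II, which present peptides to helper T cells, stood out toward pregnant muscle. Of 16 placed members 14 had a peak, and 11 of these were higher in GD15M_CM and 1 in CD15M_CM, against 25.5% and 27.4% of all genes. Their median difference was 18.1 points, beside -0.15 for all genes. SLA-DRB1, the beta chain of the DR molecule (chromosome 7, 24901386 to 24914016), had 2 peaks of 741 bp in all and a best percentile of 93.4 in GD15M_CM and no peak in CD15M_CM. Its partner SLA-DRA (chromosome 7, 24825037 to 24830650) had 4 peaks of 2124 bp and a percentile of 88.0, again with no cyclic peak. Among peaks of −log10 p of at least 10 and fold of at least 5, the difference of SLA-DRA was 8.59 points, under the criterion, and that of SLA-DRB1 was 45.6. SLA-DOA ranked at 84.5 with no cyclic peak.

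The accessory genes of class II loading went the same way. SLA-DMA, which with SLA-DMB exchanges peptides on class II, ranked at 92.5 in GD15M_CM and 1.60 in CD15M_CM, and SLA-DMB at 99.8 and 82.7. CD74, the invariant chain, ranked at 89.6 and 44.3, with 4869 bp and 730 bp acetylated. CIITA, the master activator of class II genes, ranked at 87.4 and 73.5, and its acetylated length was 5778 bp in 10 peaks and 856 bp in 2 peaks. RFX5, another regulator of class II genes, ranked at 95.5 and 94.4, while RFXANK was the 1 member higher in CD15M_CM, at 57.9 and 86.3. SLA-DOB and CTSS had no peak in either list. The SLA genes are close copies of each other, and reads of 1 copy can be placed on another, so the values of single SLA genes are uncertain.

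Class I presentation was higher in pregnant muscle at fewer genes but longer at many. All 21 gene entries of the list had peaks in both groups. By rank, 7 were higher in GD15M_CM and 2 in CD15M_CM, against 25.5% and 27.4% of all genes. By length, 9 were longer in GD15M_CM and 1 in CD15M_CM, against 7.57% and 12.1% of all genes. The light chain B2M, which has 2 gene entries in the annotation, had best folds of 12.8 and 8.97 in GD15M_CM and of 6.76 and 6.43 in CD15M_CM. PSMB10, a subunit of the immunoproteasome, ranked at 92.8 and 44.4, although its acetylated length was 2273 bp against 3432 bp. SLA-2 ranked at 88.9 and 66.8, with 7364 bp and 3082 bp. The peptide transporter gene TAP1 and its neighbour PSMB8 share their strongest peak, at 97.5 and 95.8. PDIA3, a chaperone of peptide loading, ranked lower in GD15M_CM, at 65.8 and 94.7.

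Interferon-gamma signalling was described from receptor to target. Of 25 placed genes 21 had peaks, 9 higher in GD15M_CM and 4 in CD15M_CM, against 25.5% and 27.4% of all genes. By length, 8 were longer in GD15M_CM and 1 in CD15M_CM, against 7.57% and 12.1%. The median difference was 1.20 points, beside -0.15 for all genes. The receptors and JAK2 ranked slightly higher in CD15M_CM. IFNGR1 stood at 92.9 and 94.5, IFNGR2 at 88.5 and 93.4 and JAK2 at 86.8 and 92.7. JAK1 ranked at 97.7 in GD15M_CM and 78.7 in CD15M_CM.

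Of the interferon regulatory factors, IRF1 had 8114 bp in GD15M_CM and 4893 bp in CD15M_CM with percentiles of 97.1 and 91.9. IRF9 ranked at 98.5 and 87.4, and IRF8 at 35.0 and 10.8. Among targets, the class I activator NLRC5 ranked at 98.7 and 82.6, with 9439 bp in 9 peaks against 1995 bp in 2. PARP9 stood at 97.3 and 45.1, the feedback inhibitor SOCS1 at 83.5 and 35.8, and the chemokine CXCL10 at 61.7 and 17.7, in each case by 1 to 3 peaks. Against this direction, SOCS3 ranked at 74.8 and 89.8, PARP14 at 74.1 and 89.0 and BATF2 at 32.7 and 51.0. IFNG itself, CXCL9, CXCL11 and IDO1 had no peak in either list.

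Genes stimulated by type I interferon were split, with more of them higher in pregnant muscle. All 31 placed genes had a peak, and 10 were higher in GD15M_CM and 5 in CD15M_CM, against 25.5% and 27.4% of all genes. The count toward GD15M_CM thus lay near the share of all genes, and that toward CD15M_CM below it. By length, 3 and 0 were longer, against 7.57% and 12.1%. The median difference in percentile was 6.59 points. The exonuclease gene ISG20 had 1472 bp in 2 peaks at a percentile of 66.1 in GD15M_CM and no peak in CD15M_CM. The ubiquitin-like ISG15 ranked at 75.8 and 16.3 and OAS1, which activates RNase L, at 80.9 and 30.9. EIF2AK2, the kinase PKR, stood at 97.4 and 75.6. Of those higher in CD15M_CM, IRF3 ranked at 29.8 and 80.2 and TRIM25 at 35.7 and 84.9. MX1, a classical reporter of interferon, ranked at 87.1 and 79.9, within the 10 points.

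T cell receptor genes had few and weak peaks, more of them in pregnant muscle. Of 35 placed genes 15 had no peak in either list, among them CD3E, CD3D, CD28 and LAT. Of the other 20, 9 were higher in GD15M_CM and 3 in CD15M_CM, against 25.5% and 27.4% of all genes. Their median difference was 5.54 points. CD2 had 4 peaks of 1499 bp at a percentile of 65.4 and CD3G 1 peak of 414 bp at 67.3 in GD15M_CM, and neither had a cyclic peak. The zeta chain CD247 ranked at 74.3 and 21.7, with 3480 bp and 366 bp. CD4 went the other way, at 44.9 and 74.6. Of the cytotoxic and NK cell genes 11 of 24 had a peak, 4 higher in GD15M_CM and 3 in CD15M_CM. GZMB at 52.1, CCL5 at 58.2, NCR3 at 73.7 and GNLY at 13.2 had a peak in GD15M_CM only, whereas IL2RB ranked at 60.6 and 87.0. The T cell and epithelium markers given above are longer in GD15M_CM as well, and their part in the differences of the immune genes was not tested.

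The other immune lists went in both directions. Over all genes, 25.5% were higher in GD15M_CM and 27.4% in CD15M_CM. Of 15 chemokine and receptor genes with a peak, 5 were higher in GD15M_CM and 6 in CD15M_CM, with a median of -7.80 points. CXCL12, which holds lymphocytes through CXCR4, ranked at 28.8 in GD15M_CM and 83.5 in CD15M_CM, and CXCL14 had a cyclic peak only, at 68.1. Of 20 complement and sensor genes, 8 were higher in GD15M_CM and 9 in CD15M_CM, with TLR4 at 88.7 and 10.7 and the complement protease C1S at 43.0 and 92.9. Of 23 NF-kappa-B and cytokine genes, 5 and 7 were higher. NFKB1 had 4 peaks inside the gene at a best percentile of 76.9 in GD15M_CM and none in CD15M_CM, while IL18 had 1 cyclic peak of 307 bp at 95.2 and VCAM1 1 of 466 bp at 62.6, with no pregnant peak. None of these 3 lists leaned to 1 group by rank as MHC class II did.

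**Figure D3:**
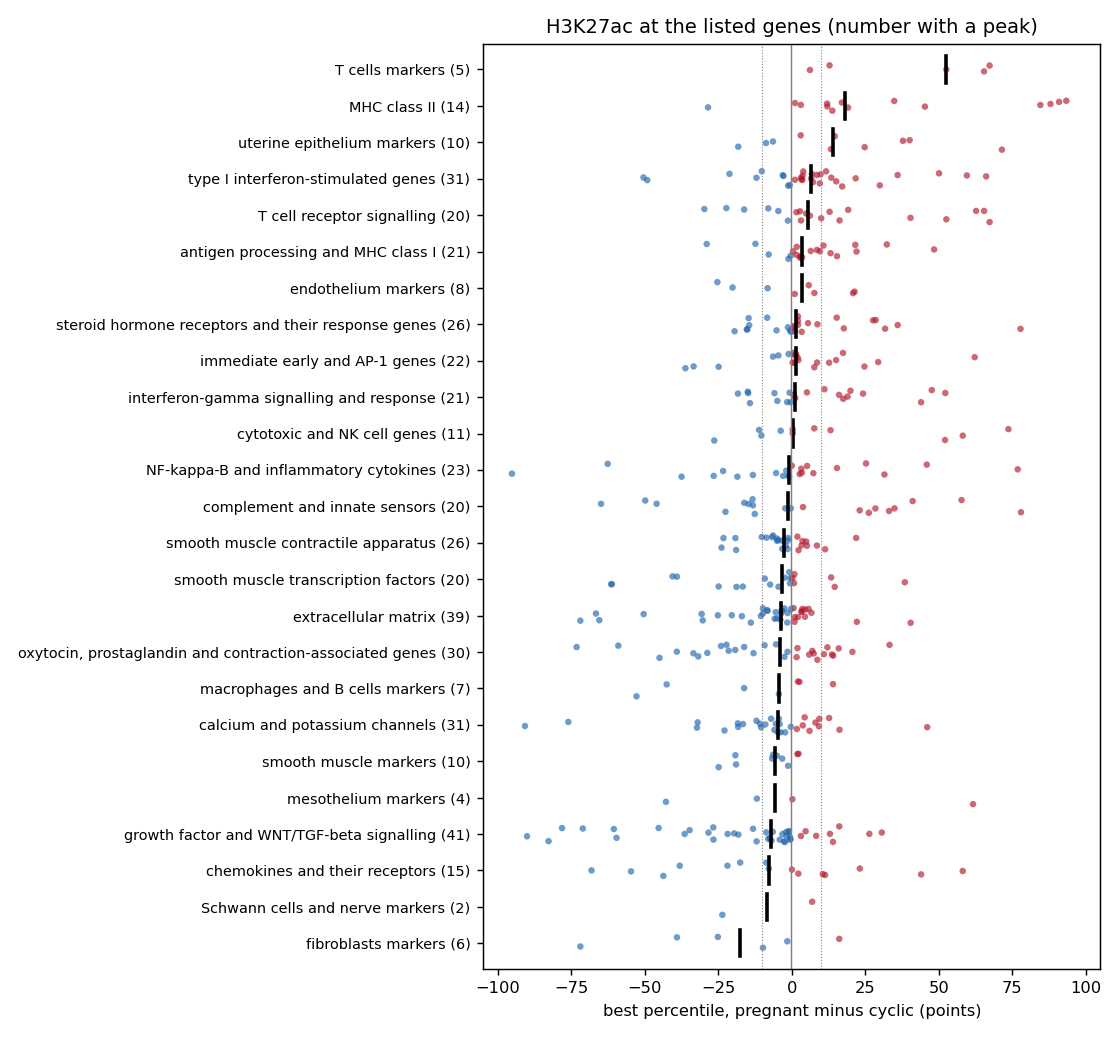
Difference in best H3K27ac percentile (pregnant minus cyclic, points, x axis) of each listed gene with a peak, for 17 pathway and 8 marker lists (y axis, number of genes with a peak in brackets). Black bars are list medians, the grey line is the median of all genes and dotted lines mark 10 points. The medians run from 52.6 for the 5 T cell markers with a peak and 18.1 for MHC class II to -17.5 for fibroblast markers. Over all placed genes, with 0 where neither list had a peak, these medians were 6.18, 15.4 and -17.5.

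Contractile genes were highly acetylated in both groups and covered less length in pregnant muscle. All 26 contractile apparatus genes had peaks, and 2 were higher in GD15M_CM and 5 in CD15M_CM, below the 25.5% and 27.4% of all genes. By the length criterion 0 and 5 were longer, against 7.57% and 12.1%. By any margin 24 of the 26 genes were longer in CD15M_CM and 2 in GD15M_CM. Their summed acetylated length was 383 kb in GD15M_CM, 511 kb in CD15M_CM and 414 kb in GD15M_LM. After scaling to equal totals, 0 and 3 were longer by the criterion, against 10.3% and 8.84% of all genes. The scaled count toward CD15M_CM thus lay near its share. MYLK, the kinase of the myosin light chain (chromosome 13, 136509878 to 136809674), had 48750 bp in 43 peaks in GD15M_CM and 89874 bp in 73 peaks in CD15M_CM, with best folds of 5.36 and 12.3. The intermediate filament genes SYNM and DES ranked at 58.8 and 82.7 and at 68.6 and 87.8, and the calponin gene CNN1 at 69.1 and 88.0. MYH11, the smooth muscle myosin heavy chain, had 19183 bp and 37818 bp at percentiles of 96.6 and 94.3. ROCK2, a kinase that sensitises the filaments to calcium, ranked at 97.9 in GD15M_CM and 76.0 in CD15M_CM, and the phosphatase inhibitor PPP1R14A at 92.8 and 81.5.

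More transcription factors of smooth muscle were longer in cyclic than in pregnant muscle. Of 20 with a peak, 3 were higher in GD15M_CM and 7 in CD15M_CM, against 25.5% and 27.4% of all genes. By length, 2 and 8 were longer, against 7.57% and 12.1%. After scaling it was also 2 and 8, against 10.3% and 8.84%. MYOCD, the coactivator of SRF that drives the smooth muscle programme, ranked at 71.2 and 96.1, with 3654 bp in 7 peaks and 12539 bp in 16. GATA6 ranked at 11.7 and 73.2, and FOXF2 had a cyclic peak only, at 61.2. TCF21, which is also in the fibroblast marker list, ranked at 57.1 and 96.2. MEIS1 had 14500 bp and 25415 bp at percentiles of 98.8 and 99.7. KLF5 and KLF4, which act against MYOCD in dedifferentiating muscle, ranked higher in GD15M_CM, at 67.3 and 28.8 and at 97.9 and 83.3.

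Genes of oxytocin and prostaglandin signalling and of contraction went in both directions, more of them toward cyclic muscle. Of 30 oxytocin, prostaglandin and contraction-associated genes with a peak, 7 were higher in GD15M_CM and 13 in CD15M_CM, against 25.5% and 27.4% of all genes. By length, 1 and 9 were longer, against 7.57% and 12.1%. OXTR, the oxytocin receptor (chromosome 13, 65134055 to 65155543), had 2 peaks of 1520 bp at a best percentile of 73.2 in CD15M_CM and no peak in GD15M_CM. PTGFR, the receptor of prostaglandin F2 alpha, ranked at 61.7 in GD15M_CM and 95.1 in CD15M_CM. The contractile adrenergic receptor ADRA2A ranked at 30.5 and 89.5. The muscarinic receptor genes CHRM3 and CHRM2 ranked at 85.6 and 98.6 and at 71.0 and 92.4, and CHRM3 had 2519 bp against 14440 bp. Prostaglandin receptors differed in direction: PTGER3 stood at 69.2 and 88.4 and PTGER1 at 62.4 and 78.6, whereas PTGIR, the relaxing receptor of prostacyclin, stood at 65.8 and 45.2 and its synthase PTGIS at 87.8 and 74.1.

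Of the enzymes of the pathway, PTGS2, which makes prostaglandin H2, had 1 peak of 203 bp at 10.5 in GD15M_CM and 1 of 578 bp at 42.4 in CD15M_CM. HPGD, which inactivates prostaglandins, ranked at 51.7 and 18.5. The gap junction gene GJA1 ranked at 93.4 and 79.3 although its length was 1736 bp against 2973 bp, while GJC1 had 343 bp against 1504 bp. Percentile and length thus pointed in different directions for GJA1. The OXT gene itself had a cyclic peak only, of 303 bp at 44.98.

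Ion channel genes were longer in cyclic muscle at many members and in pregnant muscle at none. Of 31 calcium and potassium channel genes with a peak, 3 were higher in GD15M_CM and 11 in CD15M_CM, against 25.5% and 27.4% of all genes. By length, 0 were longer in GD15M_CM and 14 in CD15M_CM, against 7.57% and 12.1% of all genes. After scaling it was 1 and 12, against 10.3% and 8.84%. CACNA1C, the pore of the L-type calcium channel (chromosome 5, 69016954 to 69448428), had 54461 bp in 61 peaks in GD15M_CM and 136491 bp in 102 peaks in CD15M_CM. Its accessory subunit CACNB2 had 6233 bp and 21199 bp. The calcium release channel gene ITPR1 ranked at 91.8 and 98.9, with 25145 bp and 44307 bp. Phospholamban (PLN), which brakes calcium uptake into the stores, had 4 cyclic peaks at a best percentile of 76.0 and no pregnant peak.

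Potassium channel genes are members of the same list. KCNJ8 and its partner ABCC9, the pore and receptor of an ATP-sensitive channel, ranked at 2.196 and 92.9 and at 88.0 and 97.0. KCNMB1, the beta subunit of the large-conductance channel, ranked at 76.2 and 94.4, and KCNH2 had 8726 bp and 23018 bp. The pore gene KCNMA1 had 111 peaks and 69287 bp in GD15M_CM and 112 peaks and 76555 bp in CD15M_CM, close to equal. CASQ2 at 79.1 and 33.1, CACNA1H at 84.6 and 68.4 and CACNA2D1 at 90.3 and 77.6 were the 3 higher in GD15M_CM. Channel genes differ widely in size, with 8.48 kb at KCNJ8 and 431 kb at CACNA1C, and length over all genes was also read by gene size. Of 2606 protein-coding genes over 100 kb, 8.75% were longer in GD15M_CM and 26.1% in CD15M_CM. Of 3744 genes under 10 kb it was 6.92% and 6.86%.

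Genes of the extracellular matrix and of growth factor signalling were seldom higher in pregnant muscle, and many were longer in cyclic muscle. Of 39 matrix genes with a peak, 2 were higher in GD15M_CM and 11 in CD15M_CM, against 25.5% and 27.4% of all genes. The count toward CD15M_CM thus lay near the share of all genes. By length, 1 and 19 were longer (1 and 14 after scaling), against 7.57% and 12.1% of all genes (10.3% and 8.84% after scaling). Gene size was not matched, and 26.1% of protein-coding genes over 100 kb were longer in CD15M_CM before scaling. The fibrillin gene FBN1 ranked at 11.2 and 76.7, lysyl oxidase (LOX), which cross-links collagen, at 69.0 and 99.6, and the collagen genes COL3A1 and COL8A1 at 67.3 and 92.4 and at 0 and 66.6. The fibronectin gene FN1, at 77.7 and 37.3, and elastin (ELN), at 71.1 and 48.9, were the 2 higher in GD15M_CM. COL1A1 and COL1A2 ranked at 96.8 and 98.3 and at 91.8 and 87.3, within 10 points.

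Of 41 growth factor, WNT and TGF-beta genes with a peak, 5 were higher in GD15M_CM and 17 in CD15M_CM, and 1 and 14 were longer (2 and 12 after scaling). Over all genes, 25.5% and 27.4% were higher, and 7.57% and 12.1% longer (10.3% and 8.84% after scaling). Gene size was not matched here either. The secreted WNT antagonists were among the largest differences. SFRP4 had a cyclic peak only, at 90.0, SFRP2 ranked at 4.82 and 83.0, DKK3 at 14.4 and 97.1, and SFRP1 at 46.7 and 83.2 with 1340 bp and 11981 bp. Their relative DKK1 went the other way, at 83.5 and 52.9. The ligands WNT4 and FGF10 had a cyclic peak only, and BMP4 ranked at 70.7 and 97.3 and IGF1 at 87.2 and 99.1. Several of the matrix genes are also fibroblast markers, whose summed length was likewise lower in GD15M_CM, and the part of those cells was not tested.

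Steroid hormone genes and early response genes were split between the groups. Of 26 steroid receptor and response genes with a peak, 7 were higher in GD15M_CM and 5 in CD15M_CM, against 25.5% and 27.4% of all genes. The steroid genes past the criterion that are named here all belong to the 7, and the 5 are not named. The receptors of oestrogen (ESR1) and progesterone (PGR) ranked at 99.4 and 99.9 and at 85.6 and 80.1, within 10 points. The glucocorticoid receptor gene NR3C1 ranked at 99.6 and 71.9, and its response genes PER1 at 97.6 and 79.9, TSC22D3 at 89.9 and 74.6 and FKBP5 at 99.6 and 97.5. FOXO1, a partner of the progesterone receptor, ranked at 99.97 and 91.2, with best folds of 11.6 and 5.55. PGRMC2 showed the largest difference of the list, 79.3 and 1.45, although its single peak was 2571 bp in GD15M_CM and 2520 bp in CD15M_CM. Of 22 immediate early genes, 6 and 3 were higher and 0 and 0 longer, with EGR1 at 98.1 and 35.8, JUN at 98.9 and 83.8, and FOSL1 at 60.9 and 97.1.

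Over the 15169 protein-coding genes, 7.58% were longer in GD15M_CM and 12.4% in CD15M_CM, and 24.6% and 25.4% were higher. By acetylated length, the 12 protein-coding genes furthest toward GD15M_CM were PITPNC1, SORL1, SNTB1, COBL, NEDD4L, LRCH1, IRF2, STX18, DLG5, CDC14A, RAPGEF1 and PAX2. PITPNC1, a phosphatidylinositol transfer protein (chromosome 12, 13741195 to 14019694), had 52340 bp in 70 peaks in GD15M_CM and 15865 bp in 26 peaks in CD15M_CM. SORL1, a sorting receptor (chromosome 9, 48435350 to 48653670), had 38882 bp in 59 peaks and 4680 bp in 12, a difference of 34202 bp that was 1263 bp among the peaks of that strict threshold. IRF2, which competes with IRF1 for interferon elements (chromosome 15, 45546779 to 45693241), had 30545 bp in 40 peaks and 10733 bp in 14. Toward CD15M_CM the 12 included CACNA1C, MICAL3, MYLK, EML1, SCUBE1, CUX1, DIP2C, TSPAN18, THSD4 and COL4A2. MICAL3, an enzyme that oxidises actin filaments, had 40084 bp in 44 peaks and 82582 bp in 77.

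These length differences lay mostly inside the genes. The genes were long, 92.6 to 372 kb toward GD15M_CM and 131 to 577 kb toward CD15M_CM. Most of each window thus lay over 3 kb from both ends, and the place of the difference follows largely from gene size. Between 82.0% and 104% of the difference of the 12 pregnant genes, and between 93.6% and 99.7% of that of the 12 cyclic genes, came from bases over 3 kb from both ends of the gene itself (over 100% where the ends differed the other way). By rank, 2 of the 12 pregnant genes (SORL1 and PAX2) and 5 of the 12 cyclic genes also passed the criterion of 10 points. The median best percentile was 97.2 in GD15M_CM and 95.3 in CD15M_CM for the pregnant genes, and 90.7 and 97.2 for the cyclic genes. After scaling, 12 of the 12 pregnant and 10 of the 12 cyclic genes kept a difference past the length criterion. The next genes outside were THADA, with 80983 bp and 65298 bp, and TBC1D1, with 39196 bp and 71286 bp. Since the genes were chosen by these differences, the values describe the choice.

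**Figure D4:**
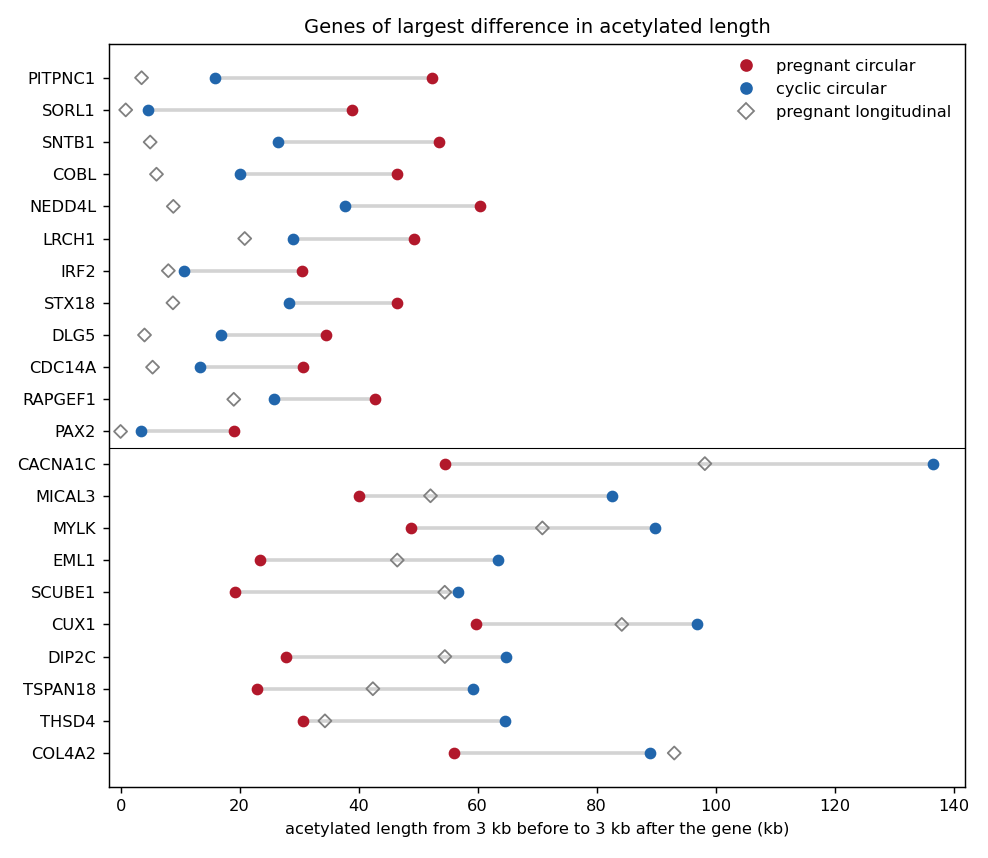
Acetylated length (kb, x axis) of protein-coding genes of largest difference in each direction (y axis, 12 toward pregnant and 10 of the 12 toward cyclic muscle) in pregnant circular (red), cyclic circular (blue) and pregnant longitudinal muscle (open diamonds). Genes were chosen by the circular values. The longitudinal values did not enter the choice but may come from the same pregnant gilts. They reach 98196 bp at CACNA1C and are 0 at PAX2.

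**Figure D5:**
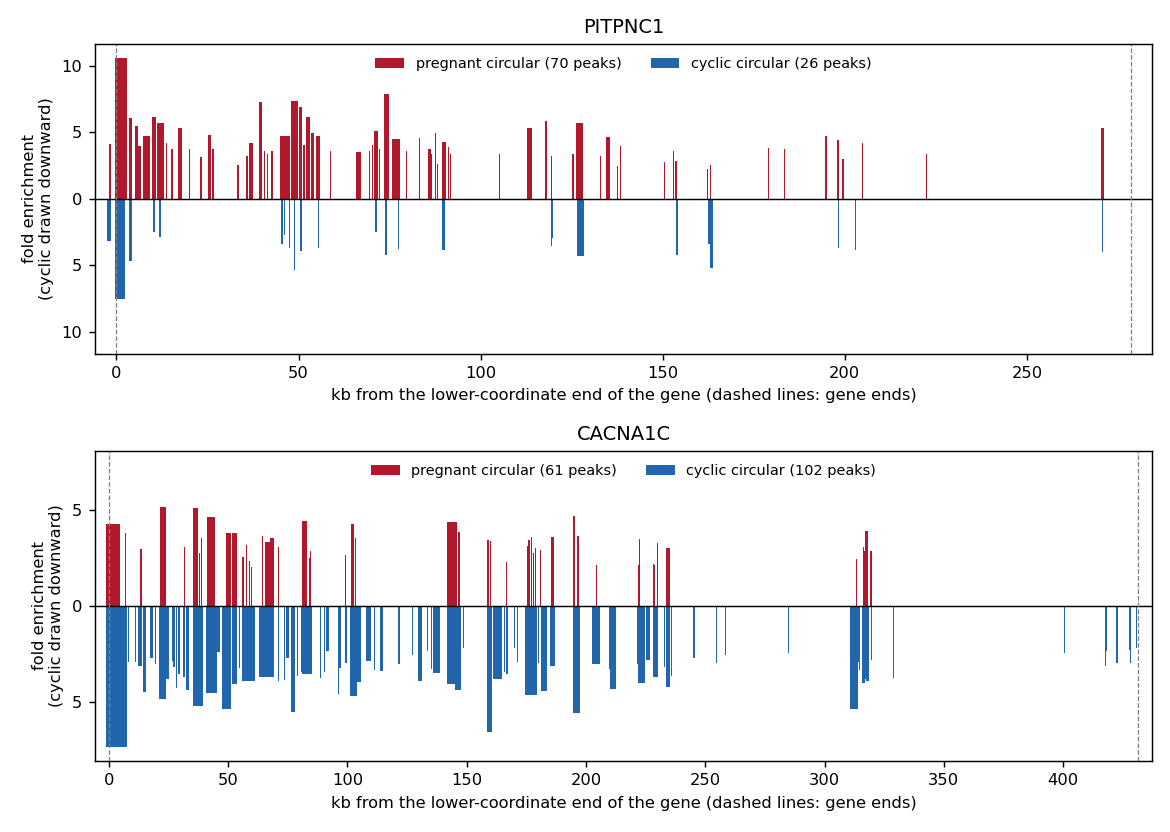
H3K27ac peaks over PITPNC1 (top) and CACNA1C (bottom) in pregnant (red, upward) and cyclic (blue, downward) circular muscle. Bar width is peak length, height is fold enrichment (y axis), and the x axis is distance in kb from the lower-coordinate end of the gene, with gene ends dashed. PITPNC1 holds 70 and 26 peaks and CACNA1C 61 and 102.

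The longitudinal muscle of the pregnant gilts, which the rule did not use, was set beside these genes. GD15M_LM had fewer peaks, 57010 in all. Its median acetylated length at the 12 pregnant genes was 5706 bp, from 0 bp at PAX2 to 20863 bp at LRCH1. At the 12 cyclic genes its median was 54489.5 bp, with 98196 bp at CACNA1C, 70887 bp at MYLK and 93054 bp at COL4A2. The cyclic genes themselves were longer, with a median of 272 kb against 187 kb for the pregnant genes. PAX2, a factor of the embryonic urogenital tract, had 19083 bp in GD15M_CM, 3356 bp in CD15M_CM and no longitudinal peak.

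By best percentile among genes with peaks in both lists, the 12 furthest toward GD15M_CM were NKRF, SLA-DMA, HFE, DDX59, LEFTY2, FAM57A, CEP152, IDS, ENY2, IFT20, CASP8AP2 and FGL1, by 85.8 to 93.3 points. NKRF, a repressor of NF-kappa-B targets (X chromosome, 98008870 to 98025423), had a fold of 6.83 in GD15M_CM and 2.35 in CD15M_CM, at percentiles of 96.8 and 3.58. HFE, a class I-like protein of iron control (chromosome 7, 20758604 to 20767004), ranked at 98.3 and 7.71. The peak of LEFTY2 lies outside the gene, in its flank. Toward CD15M_CM they were SH3GL2, FAM198A, FUCA2, NPY1R, CYYR1, KCNJ8, CD83, GNG4, CEP57, HMGXB3, CCDC181 and ZNF300, by 86.1 to 94.4 points. NPY1R, a receptor of neuropeptide Y (chromosome 8, 52152649 to 52163080), ranked at 4.05 and 96.0, with 901 bp and 1921 bp.

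Their median gene length was 13.2 kb toward GD15M_CM and 42.6 kb toward CD15M_CM, and 7 of the 12 in each direction had 1 peak in both lists. Length often did not follow rank: SH3GL2, with folds of 2.37 and 8.07, had 1044 bp and 1091 bp, and FGL1, with 6.41 and 2.55, had 2430 bp and 2381 bp. Only 3 of the 12 pregnant and 4 of the 12 cyclic genes passed the length criterion. The next genes outside were TAF1, at 88.9 and 3.18, and FAM171B, at 9.05 and 95.1. In GD15M_LM the median percentile was 77.2 at the pregnant genes and 83.3 at the cyclic genes.

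Genes with a peak in 1 list only numbered 690 in GD15M_CM and 1249 in CD15M_CM, and most were weak, with median percentiles of 45.9 and 44.0. The 12 of highest rank in GD15M_CM were SLC9A2, C8H4orf26, CDKN2B, SLA-DRB1, TMEM45B, BEX1, SLC15A5, AKR1C1, TMEM265, SLA-DRA, BTLA and C2H5orf46. SLC9A2, a sodium-proton exchanger of epithelia (chromosome 3, 51535798 to 51623003), had 2 peaks of 642 bp at 99.3, the strongest with a fold of 8.57. AKR1C1, which in other species inactivates progesterone, had 1 peak of 674 bp at 89.9, and BTLA, an inhibitory receptor of lymphocytes, 2 of 581 bp at 87.6. The single peak of CDKN2B lies in its flank and is also the peak of P14ARF, so that the gene it belongs to is open. In GD15M_LM only 3 of these 12 genes had a peak.

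The 12 of highest rank in CD15M_CM only were RORB, ZNF804A, SLC38A11, TEX12, LRRIQ1, C1QTNF3, OIT3, ETNPPL, SEMA3D, TMPO, SPATA18 and MAPK10. RORB, an orphan nuclear receptor (chromosome 1, 227573972 to 227776806), had 2 peaks of 2975 bp at 98.5. SEMA3D, a guidance factor of nerves and vessels, had 1 peak of 1846 bp at 94.8, and MAPK10, the kinase JNK3, 4 peaks of 1885 bp at 93.5. Of these 12 genes 10 had a peak in GD15M_LM, with 97.6 at RORB and 85.8 at SEMA3D. The next genes outside were FABP2, at 85.6 in GD15M_CM, and HTR1B, at 92.9 in CD15M_CM.

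H3K4me3, the mark of active promoters, was measured in the same tissues and did not enter the choice of genes, but its lists share the IgG control libraries of their group with H3K27ac. Values are therefore only set side by side. Over the genes with an H3K4me3 peak, 12.4% were at least 10 points higher in GD15M_CM and 23.9% in CD15M_CM. At the 12 genes chosen by percentile toward GD15M_CM, the median H3K4me3 percentile was 82.8 in GD15M_CM and 74.7 in CD15M_CM, and at the 12 toward CD15M_CM it was 64.2 and 81.4. At the 12 genes with an H3K27ac peak in CD15M_CM only it was 57.6 and 73.1, and 10 of them still had an H3K4me3 peak in GD15M_CM. At the 12 chosen by length, the medians were 89.3 and 85.9 for the pregnant and 84.0 and 86.0 for the cyclic genes.

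For single genes of the groups described above, H3K4me3 was as follows. CD74 ranked at 83.9 in GD15M_CM and 63.4 in CD15M_CM, SLA-DRB1 at 90.1 and 62.6, and CXCL10 at 62.6 and 9.69. Of 15 MHC class II genes with an H3K4me3 peak, 8 were at least 10 points higher in GD15M_CM and 0 in CD15M_CM. MYLK ranked at 76.5 and 97.2, KCNJ8 at 60.7 and 69.8, and the median over the 41 matrix genes with an H3K4me3 peak differed by -7.57 points. OXTR and MYOCD, at 40.1 and 50.7 and at 80.9 and 68.2, show a gene with an H3K4me3 peak where GD15M_CM had no H3K27ac peak and a gene whose marks ranked in different directions.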

How the data were processed

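H3K27ac, H3K4me3 and IgG libraries were made from pig myometrium on day 15. Per the labels, reads were mapped to Sscrofa11.1 with BWA 0.7.17-r1188 and handled with SAMtools 1.9 and Picard 2.8.3. The authors pooled 2 libraries per group and called peaks with MACS2 2.2.6. The deposited fold enrichment is a ratio over IgG, whose scaling is not given in the sources used here. The deposited −log10 p column, whose header was unreadable, served only for an alternative ranking and a stricter threshold, and a column inferred to hold −log10 q was not used. Percentiles, overlaps of at least 1 bp and window lengths were computed in Python 3.11.15 (SciPy 1.17.1, NumPy 2.4.6, pandas 2.3.3). Matplotlib 3.10.9 drew the figures. The code was checked on simulated intervals. RefSeq gene models of Sscrofa11.1 gave positions. Of 569 list entries, 22 could not be placed. Genes were named by rule: the 12 of largest difference per measure and direction, passing over overlapping windows, uncharacterised (LOC) symbols and non-coding genes, then the largest differences and best known members of each list. Members, lists and rules were chosen with earlier results of these data known. No test across samples was made, because the pooled lists used here hold no value per gilt. Some members named by the rule are not reported here. Motif and G+C content of peaks were planned and not analysed here.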

Additional observations from a re-analysis of the deposited data

How the results depend on the processing

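No paired analysis was possible because the pooled lists used here hold no value per gilt, and for the same reason no single gilt was left out. The depth of the libraries is not in the lists. The share of genes ranked higher in GD15M_CM lay on both sides of 50%: it was 50.58% with peaks of −log10 p of at least 10 and fold of at least 5, 50.18% with an equal number of top peaks, 50.79% for genes with a peak in both lists, and 50.40% for gene ends only, a setting chosen after seeing the data. The share longer in GD15M_CM was 50.54% under the strict threshold and 57.30% with lengths scaled by list total, and it stayed below 50% with joined peaks (46.00%), equal numbers (45.67%), a window of 1 kb (44.06%), no flanks (42.89%) and gene ends only (47.43%).

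The shares of overlapping peaks are given as near and far in GD15M_CM, then near and far in CD15M_CM. They were 57.36%, 37.56%, 58.79% and 30.04% under the strict threshold, 77.43%, 61.56%, 77.52% and 55.72% with equal numbers, and 70.51%, 52.82%, 67.57% and 42.51% with 50% of the peak covered. For near GD15M_CM, near CD15M_CM and far CD15M_CM peaks they were 84.62%, 81.62% and 56.24% with peaks under 1 kb apart joined, 86.23%, 84.39% and 56.37% with a window of 1 kb, and 79.63%, 78.47% and 55.84% with protein-coding genes only. In each of these settings a smaller share of far than of near peaks was shared.

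List medians turned sign under the strict threshold for macrophage and B cell markers (4.69 points), mesothelium markers (0.50) and Schwann cell markers (49.12). They turned for steroid hormone genes (-0.082) and NF-kappa-B genes (0.68) when peaks were ranked by −log10 p. With gene ends only, they turned for steroid hormone genes (-2.09), NF-kappa-B genes (0.89) and Schwann cell markers (2.82). The cause was not tested. No T cell marker had a peak under the strict threshold, so that list has no value there. None of the 72 named genes changed direction under the settings run for them. They were chosen as the largest differences of the same peaks, so a kept direction gives them no support. With a window of 1 kb, 4 of them had no peak left. Sizes did change. Under the strict threshold 63 moved, the difference was over 1.5 times smaller for 45 of the 67 with a value, and 5 had no peak left: CEP152 went from 87.5 to 10.9 points and SCUBE1 from -37436 to -1016 bp. Ranked by −log10 p, 26 moved and 6 of the 72 differences were over 1.5 times smaller, with ENY2 from 87.4 to 38.8 points, FGL1 from 85.8 to 41.7 and IFT20 from 87.2 to 45.4. By length, 3199 genes were longer in GD15M_CM and 3047 in CD15M_CM under that threshold, of 11470 with a peak, against 1439 and 2297 otherwise.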

Other observations

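Of marker lists not described above, 8 of 9 placed endothelium markers had a peak, 2 higher in each group, and their summed acetylated length was 30.1 kb in GD15M_CM and 22.3 kb in CD15M_CM. Of 10 macrophage and B cell markers 7 had a peak, 1 higher in GD15M_CM and 3 in CD15M_CM, with 19.2 kb and 22.5 kb. The 4 mesothelium markers with a peak carried 23.3 kb and 23.2 kb.

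The strongest peaks found in 1 list only lay mostly away from named genes. In GD15M_CM the highest far from gene ends was on the X chromosome, 1084892 to 1085562, with a fold enrichment of 18.3, inside an uncharacterised gene, and 626 of its bases were also covered in GD15M_LM. The highest near a gene end was on chromosome 1, 145813680 to 145814609, with a fold of 10.7, 2007 bp from CTDP1, and 852 of its bases were covered in GD15M_LM. In CD15M_CM the highest near a gene end was on chromosome 4, 128736949 to 128739237, with a fold of 9.09 at an uncharacterised gene. The third near a gene end, on chromosome 1 from 227574254 to 227576832, lies in RORB, and H3K4me3 of CD15M_CM covered its full 2579 bp. A far peak on chromosome 6, 73028333 to 73029547, with a fold of 7.41, lies in PDPN.

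Over the autosomes, the ratio of acetylated length in GD15M_CM to that in CD15M_CM ran from 0.852 on chromosome 15 to 0.9503 on chromosome 7, and it was 0.862 on the X chromosome.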
